A study of Mus musculus with 14 samples.

Results

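Ribosome biogenesis genes, which encode the factors that transcribe, cut, modify and assemble ribosomal RNA into subunits, were described in the duodenal mucosa of mice after a low-fat (LF) or a high-fat (HF) meal. The group was a list of 40 gene symbols, and a symbol was a member when the array's annotation named it, by its current or an older name, for a probe set of that gene alone. There were 39 members among the 18193 genes with such a probe set, and Npm3 had none in the annotation used here. If more than 1 probe set named a gene, the brightest by its mean represented it.

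Male C57BL6 mice, 12 wk old, received a LF diet for 2 wk and were then fasted for 12 h. The fasting group was sampled at that point, and the other 6 groups after a LF meal (10% of calories from fat) or a HF meal (60%), 30 min, 1 h or 3 h from its start (LF30min, LF1h, LF3h, HF30min, HF1h and HF3h). Mucosa scraped from the first 5 cm of the small intestine of 20 mice was pooled for each group. Every pool was hybridized to 2 Affymetrix MOE 430 v2.0 arrays, which gave 14 arrays and n = 2 technical replicates per group. All errors and p-values below therefore covered the spread between arrays, and the spread between mice was not measured. In pooled tissue, fewer cells of a type and less RNA per cell cannot be told apart. The values were log2 intensities after Robust Multiarray Analysis, the number of arrays limited the precision, and levels of different probe sets were not compared.

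Ribosomes are made in the nucleolus. RNA polymerase I transcribes a long ribosomal RNA precursor there, box C/D and box H/ACA small nucleolar ribonucleoproteins (snoRNPs) methylate and pseudouridylate it, and assembly factors cleave it and fold it with ribosomal proteins into the small and the large subunit. The pathway is a known target of the transcription factor Myc and of the nutrient-sensing mTOR kinase, and in the intestine it is most active in the dividing cells of the crypt.

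The tissue carried the transcripts of its label. The 14 enterocyte markers measured had log2 values from 7.61, the lowest of Cdx2, to 14.41, the highest of Apoa1, and their summed intensity lay between 103901 and 112792 on the 14 arrays. Every pool also held abundant pancreatic acinar transcripts, whose 17 markers summed to between 61126 and 143829, and varying amounts of gastric transcripts. Of the 17, Zg16 stayed at 13.89 to 13.96 on the log2 scale and added a near-constant amount to every acinar sum. The acinar and gastric values are given beside the results they moved with. Across probe sets, the correlation of both arrays from 1 pool was between 0.9958 and 0.9971, and array medians lay between 4.47 and 4.55. Of the members, 21 had a mean under 6 on the log2 scale and 3 had one under the highest array median, a range in which background compresses changes.

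The members were compared with fasting by limma, with Benjamini-Hochberg adjustment over 45037 probe sets within each comparison, and a gene had passed the test at an adjusted p under 0.05. Counts at an unadjusted p under 0.05 also appear below, and the share of all genes at that threshold was not counted. Those counts therefore have no background and were not read as results about a list. Ribosome biogenesis genes changed little after either meal. Of 234 tests of a member against fasting 7 passed, all for higher values in the fed pool, and these belonged to 6 genes. Npm1 at HF30min had the largest change, 0.51 on the log2 scale or 1.42-fold. The study's methods asked for P under 0.05 and a 2-fold change against fasting. No member reached 2-fold in any comparison. An adjusted p under 0.05 and a 2-fold change together were met by 0.0879%, 0.264% and 0.231% of all genes at LF30min, LF1h and LF3h against fasting. At HF30min, HF1h and HF3h the shares were 0.198%, 0.126% and 0.484%. Between the meals 0.077%, 0.022% and 0.28% met both at 30 min, 1 h and 3 h. Between 3 h and 30 min 0.225% did after the LF and 0.577% after the HF meal. In each of the 11 comparisons made, the 95% interval of every member lay within a 2-fold change in both directions, and 34 to 39 of the 39 lay within 1.5-fold.

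**Figure D1:**
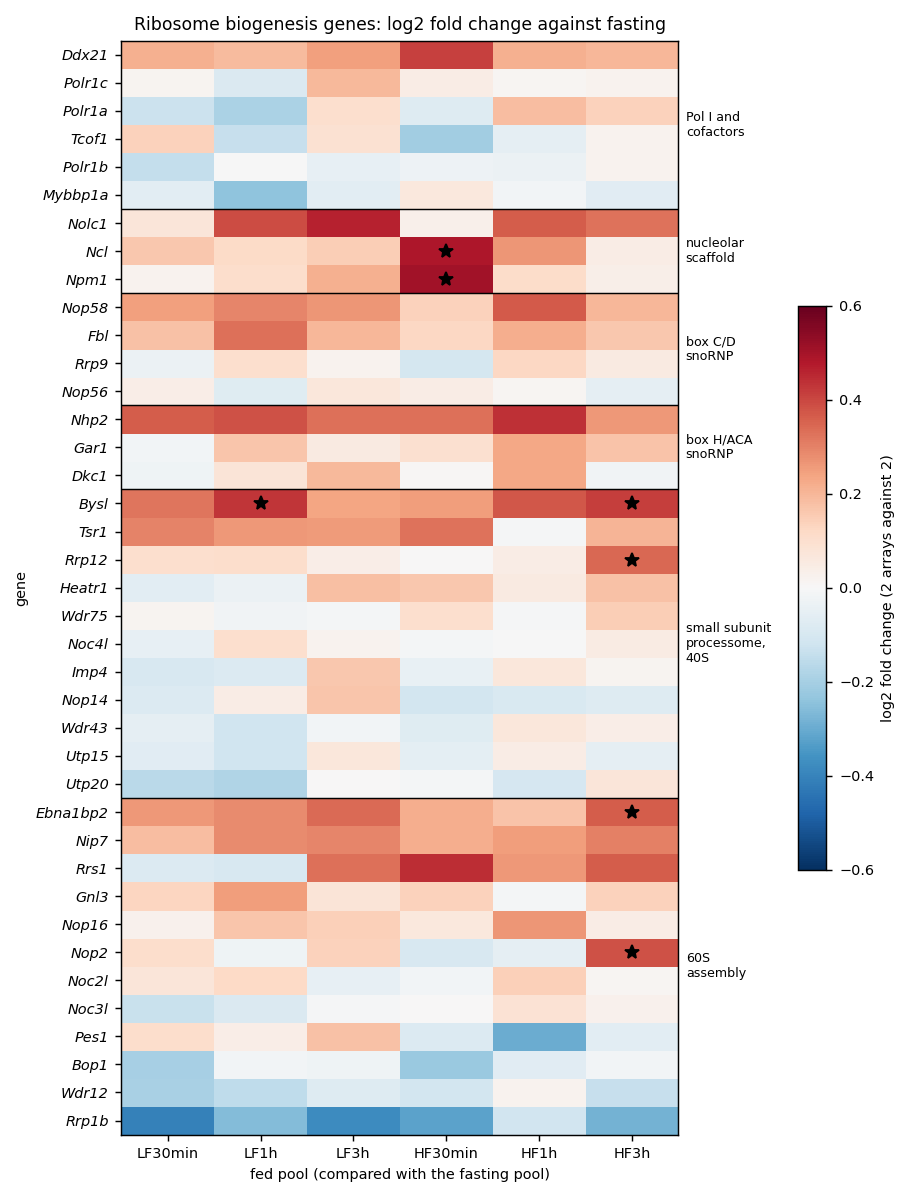
Log2 fold change of each of the 39 members (vertical axis, grouped by role) in the 6 fed pools (horizontal axis), 2 arrays against the 2 fasting arrays, from blue (lower than fasting) to red (higher), with a star at the 7 tests that passed. Changes ran from -0.41 for Rrp1b at LF30min to 0.51 for Npm1 at HF30min.

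The 6 genes were Ncl and Npm1 at HF30min, Bysl at LF1h and HF3h, and Ebna1bp2, Nop2 and Rrp12 at HF3h. Ncl lies on chromosome 1 (86344719 to 86359455 in GRCm38), Npm1 on chromosome 11 (33152498 to 33164142), Bysl on chromosome 17 (47599331 to 47611492), Ebna1bp2 on chromosome 4 (118620799 to 118627776), Nop2 on chromosome 6 (125131883 to 125144753) and Rrp12 on chromosome 19 (41859483 to 41896153). Promoter windows from RefSeq (GRCm38.p6) reach from 250 bases before the transcript start to 50 after it, and 33 of the 39 members had one. The windows of the genes that passed, where the table held one, are shown because Myc binds the E-box CACGTG, which reads the same on both strands and is in capitals. The Nop2 window (chr6:125131633-125131932, plus strand) holds it 60 bases before the start. The windows of Bysl (chr17:47611443-47611742, minus strand), Ebna1bp2 (chr4:118620549-118620848, plus strand) and Ncl (chr1:86359406-86359705, minus strand) do not hold these letters.
Nop2: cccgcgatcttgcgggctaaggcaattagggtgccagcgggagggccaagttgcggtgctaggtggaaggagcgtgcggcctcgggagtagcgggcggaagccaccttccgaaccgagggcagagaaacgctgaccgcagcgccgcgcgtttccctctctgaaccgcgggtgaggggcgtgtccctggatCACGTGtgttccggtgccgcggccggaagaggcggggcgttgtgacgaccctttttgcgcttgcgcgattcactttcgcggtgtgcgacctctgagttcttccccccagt
Bysl: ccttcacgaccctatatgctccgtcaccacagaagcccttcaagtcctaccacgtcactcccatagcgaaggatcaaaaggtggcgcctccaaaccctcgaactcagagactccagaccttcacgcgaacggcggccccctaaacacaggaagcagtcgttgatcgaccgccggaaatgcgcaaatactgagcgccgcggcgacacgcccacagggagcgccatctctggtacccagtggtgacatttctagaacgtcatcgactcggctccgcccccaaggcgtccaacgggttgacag
Ebna1bp2: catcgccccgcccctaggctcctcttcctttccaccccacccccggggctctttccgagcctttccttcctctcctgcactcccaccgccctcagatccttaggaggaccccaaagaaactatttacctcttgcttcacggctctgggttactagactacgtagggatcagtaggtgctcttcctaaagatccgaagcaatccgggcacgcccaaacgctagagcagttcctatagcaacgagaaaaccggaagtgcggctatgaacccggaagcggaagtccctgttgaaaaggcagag
Ncl: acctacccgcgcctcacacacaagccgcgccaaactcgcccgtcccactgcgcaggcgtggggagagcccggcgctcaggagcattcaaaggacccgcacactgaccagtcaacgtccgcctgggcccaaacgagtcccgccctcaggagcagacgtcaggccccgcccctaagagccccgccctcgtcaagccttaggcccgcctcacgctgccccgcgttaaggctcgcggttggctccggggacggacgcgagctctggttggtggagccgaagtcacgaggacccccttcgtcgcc

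Among members with a window, 7 of 33 (21.2%) held CACGTG, beside 10.2% of the 14452 genes on the arrays with a window and 8.09% of the 27025 genes in the table. The members that held it were Mybbp1a, Utp20, Wdr43, Imp4, Tsr1, Nop2 and Pes1, so 1 of the 4 genes printed above was among them. By role it was in 4 of 10 small subunit genes, 2 of 10 large subunit genes and 1 of 5 genes of the RNA polymerase I group, and in none of the 2 nucleolar scaffold, 3 box C/D and 3 box H/ACA genes. A match of letters is a description of the window and was not read as a binding site.

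The nucleolar scaffold genes Ncl and Npm1 gave the largest changes from fasting, both at HF30min. Ncl encodes nucleolin, which coats ribosomal DNA and the nascent precursor, and Npm1 encodes nucleophosmin, the abundant protein of the outer nucleolus. The log2 values of Ncl were 8.22 and 8.41 in fasting, 8.82 and 8.77 at HF30min, 8.59 and 8.56 at HF1h, and 8.38 and 8.33 at HF3h. After the LF meal Ncl measured 8.43 and 8.52 at 30 min, 8.49 and 8.37 at 1 h, and 8.43 and 8.48 at 3 h. Both HF30min arrays lay above the other 12, and the LF and HF3h arrays overlapped with or lay close to fasting. Npm1 had values of 7.99 and 8.27 in fasting and 8.62 and 8.65 at HF30min. The 10 arrays of the other fed pools lay between 8.08 and 8.36, so the HF30min arrays were again the highest of the 14.

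Against fasting at HF30min, Ncl was higher by 0.48 on the log2 scale (SE 0.09, limma adjusted p = 0.02) and Npm1 by 0.51 (SE 0.11, adjusted p = 0.049). These were 2 of 39 members called higher, or 5.13%, where 0.759% of all genes were. None was called lower, where 0.363% of all genes were. Both genes were lower again at HF3h than at HF30min, Ncl with a difference of -0.44 (adjusted p = 0.0094) and Npm1 with a difference of -0.47 (adjusted p = 0.019), a comparison that did not use the fasting arrays. In the same comparison 2 members were called lower, where 5.87% of all genes were, and 2 higher, where 3.08% were. The direct difference between HF30min and LF30min was 0.32 for Ncl (adjusted p = 0.21) and 0.48 for Npm1 (adjusted p = 0.097), and neither passed.

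The calls at HF30min leaned on single arrays. Ncl did not pass without fasting array 1 or without either HF30min array, with adjusted p between 0.023 and 0.28 over the 14 omissions. Npm1 did not pass in 11 of the 14 omissions, with adjusted p between 0.039 and 0.48. Other probe sets of both genes went the same way: a second probe set of Ncl, dimmer at a mean of 6.63, was 0.63 higher at HF30min without passing (adjusted p = 0.182), and the second of Npm1 was 0.36 higher (adjusted p = 0.0621). On the mean of the 5 Ncl probe sets, 3 of which had means under 4, the change was 0.33 (adjusted p = 0.11). Npm1 has processed pseudogenes, and its probe set may also read near-identical sequence.

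**Figure D2:**
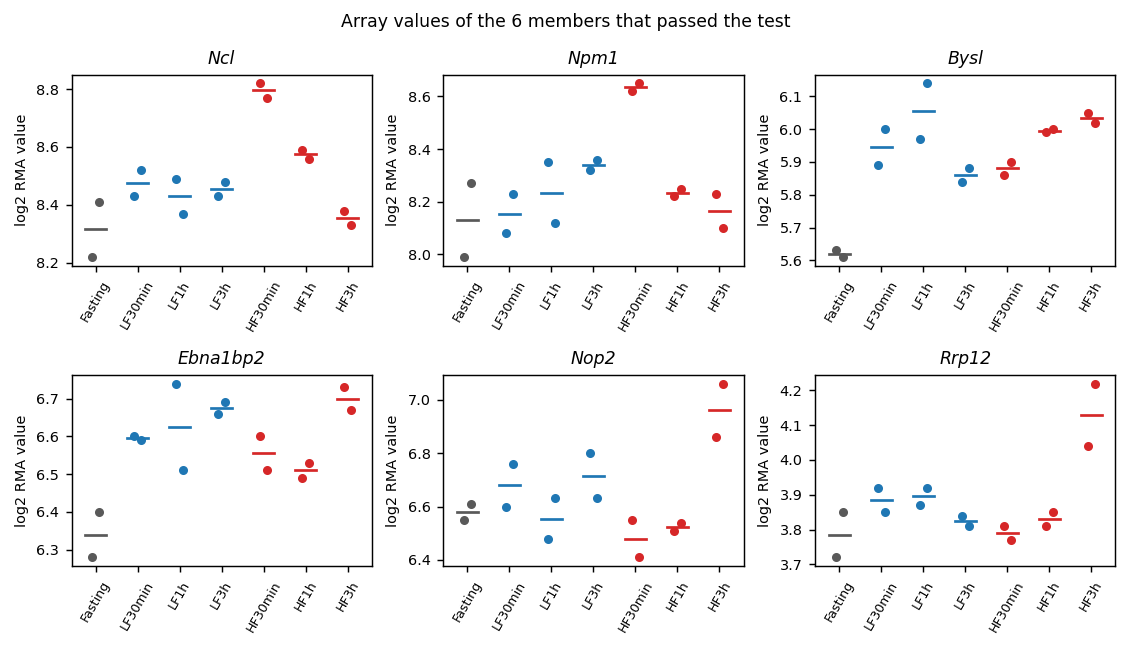
Log2 values (vertical axis, own scale in each panel) of the 6 members that passed the test in at least 1 comparison with fasting, by pool (horizontal axis). Points are the 2 arrays of a pool, lines are the pool mean, and grey, blue and red stand for fasting, LF and HF. Ncl and Npm1 were highest at HF30min, Nop2 and Rrp12 at HF3h, and all 12 fed arrays of Bysl and Ebna1bp2 lay above both fasting arrays.

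The third scaffold gene, Nolc1, whose protein accompanies snoRNPs to the nucleolus, had another time course. It measured 5.08 and 5.12 in fasting, 5.60 and 5.39 at LF1h, 5.44 and 5.69 at LF3h, 5.53 and 5.39 at HF1h, and 5.50 and 5.35 at HF3h. The arrays of these 4 fed pools all lay above fasting, whereas those of the 30 min pools (5.19 and 5.15 for LF, 4.96 and 5.31 for HF) lay close to it or on both sides. Its difference from fasting was 0.46 at LF3h (SE 0.13, adjusted p = 0.052), 0.39 at LF1h (adjusted p = 0.20), 0.36 at HF1h (adjusted p = 0.25) and 0.33 at HF3h (adjusted p = 0.18). Its 2 other probe sets, with means under 4, lay between -0.25 and 0.15.

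The HF30min pool also stood apart in other transcripts. Of 12 stomach and Brunner gland markers 11 were higher than in fasting, with a median of 2.04, and their summed intensity was 13949 to 14046 against 1263 to 1303. Of 17 pancreatic acinar markers 14 were lower, with a median of -0.88 (61126 to 61245 against 94390 to 94744). Of 11 markers of crypt stem and transit-amplifying cells 3 were higher, Olfm4 by 0.57, Prom1 by 0.51 and Slc12a2 by 0.68, and the sum was 1414 to 1438 against 1046 to 1088. None of 21 cell cycle markers passed in either direction by limma (1 higher and 1 lower at an unadjusted p under 0.05), with sums of 2800 to 2815 against 2708 to 2718. Their part in the values of Ncl and Npm1 was not tested.

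The cytosolic ribosomal proteins, the structural products that these factors assemble, were read beside the scaffold genes. Of the 74 listed, 41 had a single-gene probe set. None passed against fasting in any fed pool by limma. At HF30min 21 were higher and 1 lower at an unadjusted p under 0.05, a threshold at which all genes were not counted. The median was 0.19, where that of all genes was -0.01. Their summed intensity was 79091 to 79870 at HF30min and 67801 to 74894 on the other 12 arrays. At HF3h 7 of the 41 were lower than at HF30min and none was higher, with a median of -0.20. Ribosomal protein genes have many processed pseudogenes, and their probe sets may share them.

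Bysl and Ebna1bp2 were higher in every fed pool. Bysl encodes bystin, which accompanies the maturing small subunit. Its log2 values were 5.63 and 5.61 in fasting, 5.89 and 6.0 at LF30min, 5.97 and 6.14 at LF1h, and 5.84 and 5.88 at LF3h. After the HF meal it measured 5.86 and 5.90 at 30 min, 5.99 and 6.0 at 1 h, and 6.05 and 6.02 at 3 h. All 12 fed arrays lay above both fasting arrays. The difference from fasting was 0.43 at LF1h (SE 0.09, limma adjusted p = 0.02) and 0.41 at HF3h (SE 0.09, adjusted p = 0.011). It was 0.24 to 0.37 in the other 4 pools, where it did not pass (adjusted p between 0.061 and 0.22). At LF1h Bysl was the 1 member called higher, 2.56% of the list where 1.18% of all genes were, and no member was called lower, where 0.368% were.

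The LF1h call of Bysl did not hold without either fasting array or without LF1h array 2, with adjusted p up to 0.17, and the HF3h call was lost when any array of the fasting or HF3h pool was left out, with adjusted p up to 0.085. A dimmer second probe set, with a mean of 4.12, was 0.31 higher at LF1h (adjusted p = 0.381) and 0.46 at HF3h (adjusted p = 0.0598), and 0.60 at LF3h (adjusted p = 0.0183). At LF1h 15 of 17 acinar markers and 7 of 12 stomach markers were also higher than in fasting, with medians of 0.68 and 0.71 (143710 to 143829 and 2809 to 2859 in summed intensity). Their part in the Bysl values was not tested.

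Ebna1bp2 encodes a scaffold of early large subunit assembly. It measured 6.28 and 6.40 in fasting, 6.60 and 6.59 at LF30min, 6.74 and 6.51 at LF1h, and 6.66 and 6.69 at LF3h. The HF pools gave 6.60 and 6.51 at 30 min, 6.49 and 6.53 at 1 h, and 6.73 and 6.67 at 3 h. None of the fed arrays overlapped with fasting. The difference passed at HF3h, at 0.36 (SE 0.09, adjusted p = 0.034), and missed the threshold at LF3h, at 0.34 (adjusted p = 0.052). The HF3h call was lost in 6 of the 14 omissions of an array, those of the fasting, LF3h and HF3h pools (adjusted p between 0.023 and 0.25), and its 2 other probe sets, both dim, were 0.24 and 0.18 higher.

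Besides these, Nhp2 and Nip7 also had all 12 fed arrays above both fasting arrays. The pattern held for 4 of the 39 members (10.3%), where it held for 2.17% of all genes, and the reverse held for no member and for 1.92% of all genes. Nhp2, a core protein of the box H/ACA snoRNPs, measured 5.74 and 5.99 in fasting and 6.07 to 6.39 in the fed pools. It was 0.26 to 0.44 higher without passing anywhere (adjusted p between 0.12 and 0.33), and a dimmer probe set gave -0.27 to 0.22. Nip7, a factor of large subunit assembly, measured 5.91 and 6.13 in fasting and 6.13 to 6.41 in the fed pools, and was 0.18 to 0.30 higher without passing (adjusted p between 0.14 and 0.75), and its dimmer probe set gave -0.34 to -0.04. All of these comparisons share the 2 fasting arrays.

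Nop2 and Rrp12 were highest at HF3h. Nop2 encodes the methyltransferase of the large subunit RNA, and its promoter window was the one above that holds CACGTG. Its values were 6.55 and 6.61 in fasting, 6.86 and 7.06 at HF3h, and 6.41 to 6.80 on the other 10 arrays. The HF3h arrays were the highest of the 14, and the other pools overlapped with or lay close to fasting. Nop2 was 0.38 higher than in fasting (SE 0.10, adjusted p = 0.045) and 0.48 higher than at HF30min (adjusted p = 0.011). The call against fasting was lost with the replicate block (adjusted p = 0.055) and with p-values adjusted over all comparisons together (0.078).

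Rrp12 encodes a factor that moves both preribosomal particles out of the nucleus. It measured 3.72 and 3.85 in fasting, 4.04 and 4.22 at HF3h, and 3.77 to 3.92 on the other 10 arrays, all below the array medians. It was 0.34 higher than in fasting (SE 0.09, adjusted p = 0.035) and 0.34 higher than at HF30min (adjusted p = 0.032). With a variance prior that follows intensity, neither call of this dim probe set held (adjusted p = 0.1 and 0.091). The direct difference between HF3h and LF3h was 0.24 for Nop2 (adjusted p = 0.28) and 0.30 for Rrp12 (adjusted p = 0.11), and neither passed. Each gene had 1 probe set. The fasting comparison was lost in 10 of 14 omissions of an array for Nop2 (adjusted p up to 0.28) and in 7 of 14 for Rrp12 (up to 0.26).

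At HF3h the 4 calls made up 10.3% of the members, where 2.97% of all genes were called higher, and no member was called lower, where 3.7% were. Without either fasting array, or without HF3h array 2, none was called, without HF3h array 1 or either LF3h array the count was 1, and without either HF30min array it was 2. Without the whole HF30min pool, an omission chosen after seeing the data, it was also 2. Other markers moved in this pool: 15 of 17 acinar markers were higher (median 0.64, 139142 to 139187 in summed intensity), 5 of 12 stomach markers (6742 to 6819) and 3 of 8 adipocyte markers (975 to 1023 against 584 to 596). Of the cell cycle markers 2 were lower, Rrm2 with a difference of -0.56 and Top2a with a difference of -0.38 (2456 to 2550), and 2 crypt markers were lower (967 to 1001). Cidec, the brightest of the adipocyte markers (log2 8.28 to 9.36 over all arrays), weighs most in the adipocyte sum. The part of all these markers in the 4 calls was not tested.

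The remaining box C/D genes did not pass. Fbl, the methyltransferase of these particles, was 0.12 to 0.33 higher in the fed pools (adjusted p between 0.14 and 0.71). Its second probe set, at a mean of 7.29, passed at LF3h with a difference of 0.49 (adjusted p = 0.00638). Nop58, a core protein of the same particles, was 0.14 to 0.37 higher (adjusted p between 0.23 and 0.70), whereas its partner Nop56 lay between -0.075 and 0.069, the narrowest range of any member named here. Dkc1, the pseudouridine synthase of the box H/ACA particles, lay between -0.03 and 0.23.

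Of the RNA polymerase I group, Ddx21, a helicase that links polymerase I transcription to processing, had the largest difference, 0.41 at HF30min (SE 0.12, adjusted p = 0.16). Its fasting arrays were far apart, at 6.04 and 6.48, and a second probe set of similar brightness, at a mean of 6.12, gave -0.11. Mybbp1a, a nucleolar repressor of transcription, lay between -0.24 and 0.06. The polymerase subunits Polr1a, Polr1b and Polr1c lay between -0.19 and 0.20.

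Among small subunit factors, Tsr1, a late maturation factor, was 0.20 to 0.33 higher in 5 pools and -0.01 from fasting at HF1h, with no call. Utp15, Wdr43 and Noc4l, components or partners of the small subunit processome, stayed within 0.12 of fasting in either direction. Among large subunit factors, Rrs1, which brings the 5S particle into the preribosome, ranged from -0.09 to 0.45, and its HF30min arrays were 5.17 and 5.95, the widest pair of any member. Gnl3, the GTPase nucleostemin, lay between -0.01 and 0.25, Nop16 between 0.03 and 0.26 and Pes1, of the PeBoW complex, between -0.30 and 0.17.

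Rrp1b, a nucleolar protein of large subunit assembly that also targets a phosphatase, had the lowest differences of the list. It measured 5.98 and 5.84 in fasting, 5.49 and 5.51 at LF30min, 5.60 and 5.46 at LF3h, and 5.65 and 5.52 at HF30min. At LF1h it was at 5.5 and 5.8, at HF3h at 5.66 and 5.59, and at HF1h at 5.85 and 5.74. Both arrays lay below both fasting arrays in 5 of the 6 fed pools and overlapped with them at HF1h. The differences ran from -0.41 (adjusted p = 0.18) to -0.11, that at LF3h was -0.38 (adjusted p = 0.064), and none passed. A second probe set, at a mean of 4.86, gave 0.10 to 0.37 instead.

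As a list, the members were summarised by their median and by how often the arrays of a fed pool did not overlap with fasting. The genes set beside them were not matched for brightness. Of all 18193 genes 7912 passed a filter at a log2 value of 6, beside 20 of the 39 members. At LF3h no member passed in either direction by limma, where 3.13% of all genes were called higher and 2.28% lower. At an unadjusted p under 0.05, for which all genes were not counted, 7 members were higher and 1 lower. Their median was 0.14, where that of all genes was -0.02, and 30 of 39 were positive. Without fasting array 1 the median was 0.073. Both LF3h arrays lay above both fasting arrays in 19 members (48.7%), where 22.4% of all genes did, and below in 2 (5.13%), where 27.8% did. At HF3h the counts were 17 above (43.6%, beside 24.2% of all genes) and 2 below (5.13%, beside 27%), with a median of 0.05. At HF1h, with a median of 0.07 and no call in either direction (0.649% of all genes were called higher and 0.357% lower, and 8 members were higher at an unadjusted p under 0.05), they were 16 above (41%, beside 23.4%) and 3 below (7.69%, beside 20.5%). Acinar markers were higher in that pool in 14 of 17, with a median of 0.58, and their part was not tested.

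The remaining 3 pools had smaller medians. At LF30min the median was 0.02, with 10 members above (25.6%, beside 17.7% of all genes) and 9 below (23.1%, beside 19.9%), and no member passed in either direction (0.335% of all genes were called higher and 0.066% lower, and 4 members were higher and 1 lower at an unadjusted p under 0.05). At HF30min, where Ncl and Npm1 passed, the median of the list was 0.03, with 13 above (33.3%, beside 23.3%) and 7 below (17.9%, beside 25.7%). At LF1h it was 0.04, with 13 above (33.3%, beside 20.4%) and 8 below (20.5%, beside 21.7%).

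**Figure D3:**
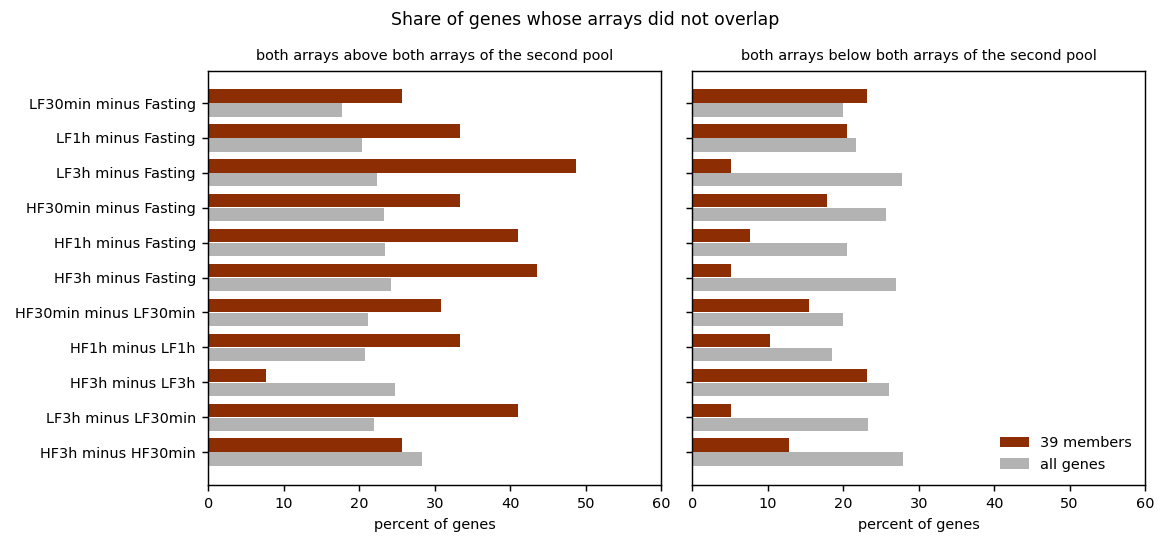
Percent of genes (horizontal axis) whose arrays in the first pool both lay above (left) or below (right) both arrays of the second pool, for the 39 members (brown) and all genes (grey) in the 11 comparisons (vertical axis). At LF3h against fasting the members reached 48.7% above and 5.13% below, beside 22.4% and 27.8% of all genes.

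LF3h and LF30min were then compared, without the fasting arrays but with the same LF3h arrays. LF3h exceeded LF30min in both arrays in 16 members (41%, beside 22% of all genes) and fell below in 2 (5.13%, beside 23.3%), with a median of 0.07. None passed in either direction by limma, where 1.99% of all genes were called higher and 2.32% lower, and 5 were higher at an unadjusted p under 0.05, among them Nolc1 by 0.39 and Imp4 by 0.26. For HF3h against HF30min the median was 0.04, with 10 members above (25.6%, beside 28.3%) and 5 below (12.8%, beside 27.9%). At LF3h the RNA also differed in quality readings, with 3' minus 5' log2 differences of 0.398 for beta-actin and -0.033 for Gapdh, beside 0.429 to 0.525 and 0.014 to 0.081 in the other pools. Acinar markers were lower there in 4 of 17 and stomach markers in 3 of 12. The cell cycle markers summed to 2974 to 3088 at LF3h, above every other pool and against 2708 to 2718 in fasting, with no call but 4 higher at an unadjusted p under 0.05. Of 11 crypt markers 1 was called lower at LF3h, and 4 were lower at an unadjusted p under 0.05 (959 to 989 in summed intensity against 1046 to 1088). Their part in the list's values was not tested.

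The pools in which each member was lowest and highest were counted. Fasting was the lowest of the 7 pools in 12 of 39 members (30.8%, beside 11.9% of all genes), LF30min and LF1h in 9 each (23.1%, beside 12.9% and 12.1%), HF3h in none (beside 18.6%) and LF3h in 1 (2.56%, beside 17.4%). HF1h was the highest in 11 members (28.2%, beside 17.8%), LF3h in 8 (20.5%, beside 14.8%) and HF3h in 7 (17.9%, beside 16.2%). The distance from the lowest to the highest pool mean had a median of 0.28 among members, from 0.14 to 0.54, and of 0.29 among all genes. By role, the medians at LF3h were 0.21 for the scaffold genes, 0.19 for box H/ACA, 0.13 for box C/D, 0.11 for large subunit assembly, 0.09 for RNA polymerase I and 0.07 for the small subunit.

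No member passed in either direction by limma between HF and LF at 30 min, 1 h or 3 h. Some alternatives did call members. At 30 min Npm1 passed with p-values adjusted over all comparisons together, a variance prior that follows intensity, a filter at a log2 value of 6, and all its probe sets averaged (adjusted p = 0.037, 0.0014, 0.018 and 0.044). Ncl passed at 30 min with the intensity prior and the filter (adjusted p = 0.016 and 0.034), and Rrp12 at 3 h when probe sets were averaged over all genes (adjusted p = 0.045). At an unadjusted p under 0.05, 4 were higher and 1 lower at 30 min, 2 higher and none lower at 1 h, and 2 higher and 2 lower at 3 h. Of all genes 0.297% were called higher and 0.253% lower at 30 min, 0.066% and 0.159% at 1 h, and 1.19% and 1.01% at 3 h. Every 95% interval lay within a 2-fold difference, the widest bound being 0.97 for Rrs1 at 30 min. At 3 h both HF arrays lay above both LF arrays in 3 members (7.69%, beside 24.7% of all genes) and below in 9 (23.1%, beside 26%), with a median of -0.01.

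Other genes of the pathway and its products were read from 9 lists. Their counts stand beside the shares of all genes called, given above, which were also larger in the 3 h pools. Of 12 other RNA polymerase I genes, 1 was higher at LF3h and none was called in another comparison with fasting. That gene was Rrn3, which recruits the polymerase to its promoter and was 0.61 higher (SE 0.15, adjusted p = 0.035). Over the omissions of an array the difference ran from 0.32 to 0.90, and the call was lost without fasting array 1 or either LF3h array (adjusted p up to 0.34). It was also lost with p-values adjusted over all comparisons together (adjusted p = 0.055). Of 49 other small subunit factors, 2 were higher and 1 lower at LF3h, 2 higher at HF3h and 1 lower at LF1h. They included Nol11 (0.71 at LF3h, adjusted p = 0.018) and Nop9 (0.44 at HF3h, adjusted p = 0.039). The Nop9 call was lost with p-values adjusted over all comparisons together (adjusted p = 0.069) and with the replicate block (0.054). The helicase Ddx52 was lower, with a difference of -0.59 at LF1h (adjusted p = 0.0041) and -0.47 at LF3h (adjusted p = 0.011).

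Of 49 other large subunit factors, 5 were higher at HF3h, among them Nol9 (0.48, adjusted p = 0.0096), Wdr74 (0.46, adjusted p = 0.019) and Nifk (0.37, adjusted p = 0.03). At LF3h 1 was higher and 1 lower, and no other fed pool had a call. Ruvbl2, of the snoRNP assembly list, was the 1 of 16 to pass, at LF3h (0.44, adjusted p = 0.007), and Mphosph6, of the RNA exosome list, the 1 of 14, at HF3h (0.39, adjusted p = 0.035). The Mphosph6 difference dropped to 0.25 on leaving out an array, and the call was lost without fasting array 2 or either HF3h array (adjusted p up to 0.31). Of 20 genes of RNA polymerase III, which makes the 5S RNA, Gtf3c4 was higher at LF1h (0.59), LF3h (0.62) and HF3h (0.45), and Gtf3a lower at LF3h (-0.43, adjusted p = 0.049), a call lost in 12 of the 14 omissions of an array (adjusted p up to 0.31) and under 4 other alternatives. When all probe sets of a gene were averaged, Nol11 (0.27), Nol9 (0.18) and Ddx52 at LF3h (-0.25) did not pass.

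The mitochondrial ribosomal proteins, which serve the other ribosome of the cell, had 5 of 56 higher at LF3h and none lower, with a median of 0.10, and 16 higher at an unadjusted p under 0.05. Mrps22 was 0.56 higher (adjusted p = 0.0033), Mrps6 0.53 (adjusted p = 0.0021) and Mrps23 0.44 (adjusted p = 0.013). At HF3h 1 was higher, Mrps6 by 0.54, and 1 lower. In the direct comparison Mrps22 was lower at HF3h than at LF3h with a difference of -0.44 (adjusted p = 0.03) and Mrpl9 with a difference of -0.48 (adjusted p = 0.039). The Mrpl9 call was lost in 8 of the 14 omissions of an array (adjusted p up to 0.24), after quantile normalization (0.053) and with the replicate block (0.052), and the Mrps22 call in 4 of the omissions. No other gene of this list passed between the meals at 3 h.

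Regulators of ribosome production were also called in the 3 h pools. The list held 37 measured genes of the Myc network, the mTOR pathway, Maf1 and the p53 pathway. At LF3h 4 were higher and 4 lower, where 3.13% and 2.28% of all genes were, and at HF3h 3 were higher and 5 lower, where 2.97% and 3.7% were. A difference from the members was not tested. Myc itself was dim. It measured 4.49 and 4.32 in fasting, 4.02 and 3.87 at LF3h, and 3.87 and 4.11 at HF3h, with differences of -0.46 and -0.41 that did not pass, and lay between -0.36 and 0.14 in the other pools.

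Mxd1, which competes with Myc for the partner Max, fell. It measured 10.49 and 10.57 in fasting, 9.98 and 10.03 at LF3h, and 9.76 and 9.86 at HF3h, and 10.47 to 10.64 on the other 8 arrays. The 3 h arrays were the lowest of the 14, with differences of -0.53 (adjusted p = 0.0022) and -0.73 (adjusted p = 0.00012). Mxd4, of the same family, was lower with a difference of -0.42 (adjusted p = 0.033) and -0.44 (adjusted p = 0.023). Its LF3h call was lost when all its probe sets were averaged (-0.29, adjusted p = 0.057), without probe sets of shared sequence (-0.29, adjusted p = 0.19) and with p-values adjusted over all comparisons together (0.053). Mxi1, another member of that family, went the other way, from 10.33 and 10.32 in fasting to 10.77 and 10.84 at LF3h and 10.99 and 10.91 at HF3h, higher by 0.48 and 0.62. Mlx, a partner of related factors, was 0.34 higher at LF3h (adjusted p = 0.04). That call was lost with p-values adjusted over all comparisons together (adjusted p = 0.064) and with the replicate block (0.055).

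Of the mTOR pathway, Deptor, an inhibitor of the kinase, measured 8.49 and 8.40 in fasting, 7.91 and 7.84 at LF3h, and 7.83 and 7.85 at HF3h, below all other arrays (-0.57 and -0.61). On the mean of its probe sets the LF3h difference was -0.20 (adjusted p = 0.1). Over the processing alternatives the HF3h difference ran from -0.614 to -0.264, and it passed in all but the 2-fold minimum. Eif4e, the cap-binding factor whose repressors mTOR inactivates, rose from 8.95 and 9.06 to 9.56 and 9.63 at LF3h and 9.47 and 9.50 at HF3h (0.59 and 0.48). Over the same alternatives these differences fell as low as 0.235 and 0.276, and both passed in all but the 2-fold minimum. Mtor was lower at HF3h with a difference of -0.31 (adjusted p = 0.038), a call lost on the mean of its probe sets (-0.10, adjusted p = 0.54). The Mtor call was also lost with p-values adjusted over all comparisons together (adjusted p = 0.067) and after quantile normalization (0.086). Ddit4, a stress-induced inhibitor of mTOR, was 0.42 higher at LF1h (adjusted p = 0.04), and that call was lost in 10 of the 14 omissions of an array.

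Sesn1, a p53 and FOXO target that restrains mTOR, was the 1 regulator past 2-fold, lower with a difference of -1.23 at HF3h and with a difference of -0.88 at LF3h. Mdm2, the ubiquitin ligase of p53 that ribosomal proteins bind, was 0.40 and 0.41 higher at LF3h and HF3h (adjusted p = 0.017 and 0.012). Its call rested on a probe set shared by several transcripts, and without probe sets of that kind the differences were 0.19 and 0.07 and did not pass. The calls of Deptor, Eif4e, Mxd1, Mxi1 and Sesn1 in the 3 h pools held in all 14 omissions of an array. The 2 comparisons share the fasting arrays.

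**Figure D4:**
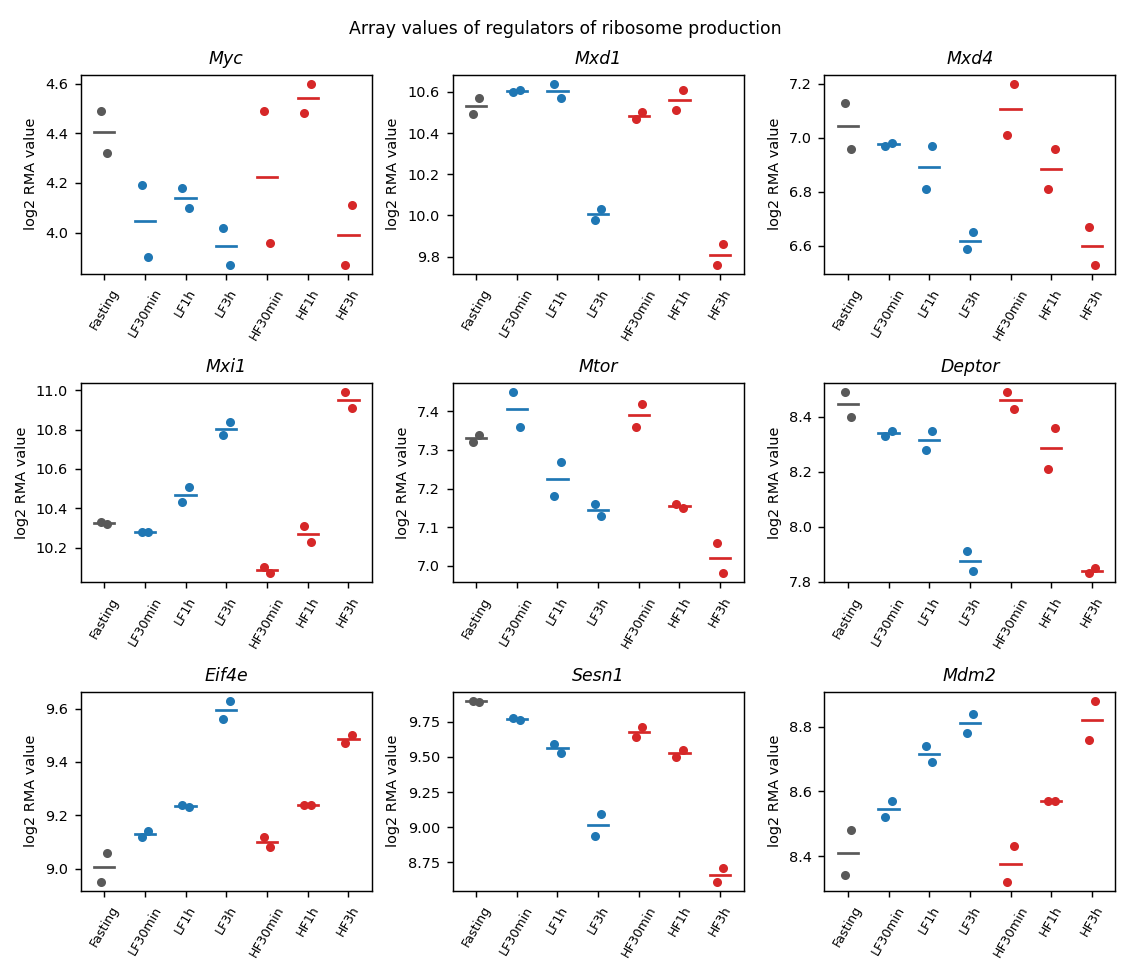
Log2 values (vertical axis, own scale in each panel) of 9 regulators of ribosome production by pool (horizontal axis), with points for the 2 arrays, lines for the pool mean, and grey, blue and red for fasting, LF and HF. At LF3h and HF3h, Mxd1, Mxd4, Deptor and Sesn1 lay below fasting and Mxi1, Eif4e and Mdm2 above it. Myc is shown although it did not pass.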

How the data were processed

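RNA from 7 pools of duodenal mucosa, 20 mice each, was measured on 14 arrays, 2 per pool. The deposited values are log2 intensities, which the authors made by Robust Multiarray Analysis with background subtraction. The log base is that of the method. They were used without further scaling.

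The 64 Affymetrix control probe sets among 45101 were left out. The platform annotation named 1 gene for 34945 probe sets, several for 932 and none for 9160, and 34741 of them were matched to current symbols by Entrez ID. A model with 1 mean per pool was fitted to all 14 arrays in limma 3.58.1 (R 4.3.3; 7 residual and 6.4 prior degrees of freedom), with 6 comparisons with fasting, 3 between the meals and 2 between 3 h and 30 min. The fit was tested on simulated data. Thresholds, the variance model, scaling, filters, probe set rules, the replicate block and left-out arrays were varied. Summed intensities are sums of unlogged values, so the brightest markers weigh most, such as Pcna among the cell cycle markers. Promoter windows were searched in Python 3.11.15.

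The members and all gene lists were chosen with earlier results of these data known. The members named with values were the 20 with the largest change from fasting and the 4 with the smallest, and from other lists up to 3 called genes and every called regulator. Other genes named, such as Myc, Imp4, Mrpl9, the polymerase subunits and single markers, were chosen after their values were seen.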

Additional observations from a re-analysis of the deposited data

Results flagged for a closer look

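Among the other pathway lists and the crypt and cell cycle markers, 7 genes differed directly between the meals at the same time by limma, on the log2 scale. Calls between the meals in the other marker lists were more numerous and are given after these. At 30 min the crypt markers Olfm4 and Slc12a2 were higher after the HF meal, by 0.73 and 0.63 (adjusted p = 0.0066 and 0.0071). At 1 h Ddit4, the inhibitor of mTOR, was lower with a difference of -0.60 (adjusted p = 0.019), and Mcm3, a replication licensing factor, was higher by 0.57 (adjusted p = 0.044). At 3 h the mitochondrial ribosomal protein genes Mrpl9 and Mrps22 were lower with a difference of -0.48 and -0.44 (adjusted p = 0.039 and 0.03), and Rrm2, a subunit of ribonucleotide reductase, with a difference of -0.61 (adjusted p = 0.0053). The Mrpl9 call was lost in 8 of 14 omissions of an array.

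Of 17 acinar markers, 13 were lower in HF30min than in LF30min and 15 higher in HF3h than in LF3h. Of 12 stomach markers, 7 were higher at 30 min, 4 lower at 1 h and 5 higher at 3 h after the HF meal. Of 9 goblet and Paneth cell markers, 3 were higher at 30 min and 1 lower at 3 h, 3 of 8 adipocyte markers were higher at 3 h, 2 of 7 B and plasma cell markers were lower at 3 h, and 1 of 14 enterocyte markers was lower at each time.

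For 3 members the LF arrays lay on one side of both fasting arrays and the HF arrays of the same time on the other. The difference of HF minus LF was 0.53 for Rrs1 at 30 min, and 0.37 for Polr1a and 0.19 for Wdr43 at 1 h. None of these passed the limma test, and whether their directions truly oppose was not tested further. The share of all genes with this pattern was not counted, so the number of members has no background beside it.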

How the results depend on the processing

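Counts of called members were small and moved with most choices, and no called gene changed direction in any of them. Of 258 counts recomputed without leaving out an array, 216 stayed within 1.5 times. Most main counts were 0, and a 0 that stayed 0 was included, so this share does not measure how stable the calls were. The median of the list moved by more than its spread between arrays (0.059) in 3 of 283 cases and reached 0.173 at most. Many of these cases could not move it. Thresholds, adjustments and variance models leave the differences as they are, and many omissions concern an array outside the comparison. At LF3h it ranged from 0.073, without fasting array 1, to 0.145 over the omissions of 1 array. At an adjusted p under 0.01, the counts higher than fasting were 0 at LF1h, HF30min and HF3h, and HF3h against HF30min gave 0 higher and 1 lower. With a 2-fold minimum all of these were 0. With p-values adjusted over all comparisons together, HF1h, HF3h, HF30min against LF30min and HF3h against HF30min each had 1 higher. With a variance prior that follows intensity, LF1h had 2 higher, LF3h 2 higher and 1 lower, HF1h 1, HF30min against LF30min 2, and HF3h against HF30min 1. HF30min had 1 with the robust variance model and 1 with all probe sets of a gene averaged, LF3h 2 after median centring, and HF1h 1 after quantile normalization, as did HF3h against HF30min. Calls among all genes moved as well. LF3h had 637 higher after median centring, beside 570 in the main fit. After quantile normalization HF1h had 140, beside 118, and HF3h against HF30min 674, beside 560. For the other settings here and for the omissions of 1 array below, calls among all genes were not set beside the members. Those counts were therefore not read as results about the members. With all probe sets of a gene averaged, LF3h had 3 (Bysl, Fbl and Polr1c), and HF30min against LF30min 1 (Npm1), as did HF3h against LF3h (Rrp12). Without probe sets of shared sequence, LF3h had 1, HF30min 1, and HF3h against HF30min 1 lower. Without the HF30min pool, chosen after seeing the data, LF3h had 1 and HF3h 2.

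A filter at a log2 value of 6 left 20 members, and passing it depends on the levels themselves. LF30min then had 1 higher, LF1h 4, LF3h 5, HF30min 4, HF1h 2, HF30min against LF30min 2, LF3h against LF30min 3 and HF3h against HF30min 1. Among all filtered genes the shares called higher were 1.85%, 5.18%, 14.3%, 5.88%, 3.44%, 2.02%, 10.3% and 9.62% in the same order. The medians became 0.103 at LF1h and 0.11 at HF30min.

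Over the omissions of 1 array, higher counts ranged from 0 to 1 at LF1h, from 0 to 2 at LF3h (lower, from 0 to 1), from 0 to 3 at HF30min and from 0 to 4 at HF3h. For HF3h against HF30min they ranged from 0 to 2 in each direction. The LF1h call was lost without either fasting array or LF1h array 2. HF30min had 0 without fasting array 1 or either HF30min array, and 3 without fasting array 2. Replicate numbers did not pair the arrays: deviations correlated at -0.187 to 0.151 between pools, over 0.1 in 2 of 21 pairs. With the replicate block HF30min had 1 member higher (Npm1 adjusted p = 0.07), and Nop2 did not pass at HF3h against fasting (adjusted p = 0.055). Over all genes, the split of HF1h against LF1h was 12 higher and 29 lower, and 17 and 26 after quantile normalization.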

Other observations

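Other cell types gave few calls against fasting by limma. Of 11 smooth muscle markers, 1 was higher at LF30min and 1 at HF30min, and the summed intensity at LF30min was 1199 to 1232 against 985 to 1007 in fasting. Of 9 goblet and Paneth cell markers, 1 was higher at HF30min and 3 were lower at HF3h. Of 7 B and plasma cell markers, 1 was higher at LF3h and 1 lower at HF3h. Of 8 T cell markers none passed, and at an unadjusted p under 0.05 there were 3 lower at LF1h, 2 lower at LF3h, 2 higher at HF30min and 1 higher at HF1h. Of 8 adipocyte markers, 1 was also higher at LF3h. Of the 14 enterocyte markers, 1 was higher at LF1h, 1 higher and 1 lower at LF3h, 1 lower at HF30min and 2 higher at HF3h.

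The CACGTG motif was also counted in the windows of the other lists, as a description. It was found in 10 of 39 other small subunit genes (25.6%), 4 of 15 RNA polymerase III genes (26.7%), 6 of 41 other large subunit genes (14.6%) and 2 of 12 other RNA polymerase I genes (16.7%). It was in none of 13 snoRNP assembly genes, in 1 of 12 exosome genes (8.33%), 4 of 36 cytosolic and 4 of 48 mitochondrial ribosomal protein genes (11.1% and 8.33%), and 6 of 32 regulators (18.8%).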
